A study of Mus musculus with 14 samples.

Results

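The Fraser complex genes Fras1, Frem1 and Frem2, the nephronectin gene Npnt and the proteoglycan genes Hspg2 (perlecan) and Agrn (agrin) were followed in RNA sequencing of mouse skin cells that make different C-termini of the transcription factor p63. These 6 genes were taken by name, out of 27179 genes in the keratinocyte table and 24411 genes in the epidermis table. All of the mice were newborn and carried Trp63 with a floxed exon 13 on both alleles (Trp63-Ex13fl/fl). The p63beta mice also carried KRT14-Cre, a recombinase expressed in keratin 14 positive cells, which removes exon 13 in the cells that express it. The p63alpha mice had no Cre and kept the exon. Cultured proliferating keratinocytes gave 3 p63beta and 3 p63alpha libraries, from cells grown in low calcium medium with 0.05 mM CaCl2. Epidermis that had been separated from dermis by trypsin gave 4 p63beta and 4 p63alpha libraries, from tissue that was not cultured. Nothing in the labels ties a library to an animal of its own. The p-values therefore reflect how far these libraries differ among themselves, and part of that may be technical.

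The basement membrane is the sheet of matrix on which basal keratinocytes sit. FRAS1, FREM1 and FREM2 are very large proteins that assemble into a complex on the dermal side of this sheet, and mice or people that lack a member of it blister beneath the epidermis before birth and develop Fraser syndrome or related malformations. Nephronectin is a smaller matrix protein whose best known receptor is integrin alpha8 beta1, and in mouse skin it is known from the hair follicle, where it marks the place at which the arrector pili muscle attaches. Perlecan and agrin carry heparan sulphate chains, through which matrix holds growth factors. Perlecan binds laminin, nidogen and dystroglycan, and agrin is best known for clustering acetylcholine receptors at the nerve-muscle junction through LRP4 and MuSK.

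Each keratinocyte library held 20688027 to 30066041 counted read pairs, and each epidermis library 21290068 to 44909629 estimated counts. All 7 basal keratinocyte markers were detected in every library, with Krt5 highest in keratinocytes, at 12360 to 17770 CPM (counts scaled to a common library total) in p63beta keratinocytes and 12330 to 20010 CPM in p63alpha keratinocytes. Krt15, another basal keratin, was low in culture, at 0.841 to 6.01 CPM in p63beta and 0.809 to 6.19 CPM in p63alpha keratinocytes. Krt10, a keratin of the differentiating layers, stood at 50240 to 62990 CPM in p63beta epidermis and 37550 to 77670 CPM in p63alpha epidermis. Total Trp63 RNA was 364 ± 24.3 CPM in p63beta keratinocytes and 183 ± 8.13 CPM in p63alpha keratinocytes (SD, n = 3 each), and 640.5 ± 112 CPM in p63beta epidermis and 437 ± 159 CPM in p63alpha epidermis (SD, n = 4 each). A gene total does not check the loss of exon 13. The third p63beta keratinocyte library stood apart in heart muscle markers. Its 10 listed markers summed to 3424 CPM, with Myh6 at 1226 CPM, against sums of 145 and 214 CPM in the other p63beta libraries and 106 to 211 CPM in the p63alpha libraries. In bulk RNA, fewer cells of a type and less RNA per cell cannot be told apart.

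Levels of different genes were set side by side per length, as FPKM in keratinocytes and TPM in epidermis, which were quantified separately. In keratinocytes the order was the same in both genotypes, with Agrn highest, then Hspg2, Npnt, Fras1, Frem2 and Frem1. Agrn averaged 62.9 ± 4.13 FPKM in p63beta keratinocytes and 43.3 ± 11.5 FPKM in p63alpha keratinocytes (SD, n = 3 each). Frem1, at the other end, averaged 0.0339 ± 0.00809 FPKM in p63beta keratinocytes and 0.0189 ± 0.0146 FPKM in p63alpha keratinocytes. No neighbours in the keratinocyte order overlapped within a genotype. The proteoglycan genes and Npnt were thus the main members expressed in culture, and the Fraser genes were low.

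In epidermis Agrn was again highest, at 56.4 ± 5.88 TPM in p63beta and 67.95 ± 22.1 TPM in p63alpha (SD, n = 4 each). Hspg2 followed at 20.8 ± 3.8 TPM in p63beta epidermis and 17.46 ± 6.76 TPM in p63alpha epidermis, and Npnt at 16.1 ± 5.9 TPM in p63beta epidermis and 24.7 ± 11.7 TPM in p63alpha epidermis. Neighbours in the order among Hspg2, Npnt, Frem2 and Fras1 overlapped in both genotypes, and Npnt averaged more than Hspg2 in p63alpha epidermis only. Genes further apart in the order could still separate. In p63beta epidermis Hspg2 (16.7 to 24.1 TPM) lay above Frem2 (7.06 to 10.2 TPM) and Fras1 (6.72 to 9.26 TPM). In p63alpha epidermis Hspg2 (9.01 to 25.4 TPM) overlapped Frem2 (7.82 to 15.3 TPM) and Fras1 (6.62 to 11.6 TPM). Frem2 averaged 9.17 ± 1.48 TPM in p63beta epidermis and 10.65 ± 3.37 TPM in p63alpha epidermis. Fras1 averaged 7.80 ± 1.15 TPM in p63beta epidermis and 9.27 ± 2.04 TPM in p63alpha epidermis. Frem1 was lowest, at 0.959 ± 0.154 TPM in p63beta epidermis and 1.64 ± 0.489 TPM in p63alpha epidermis, and did not overlap with the gene above it.

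**Figure D1:**
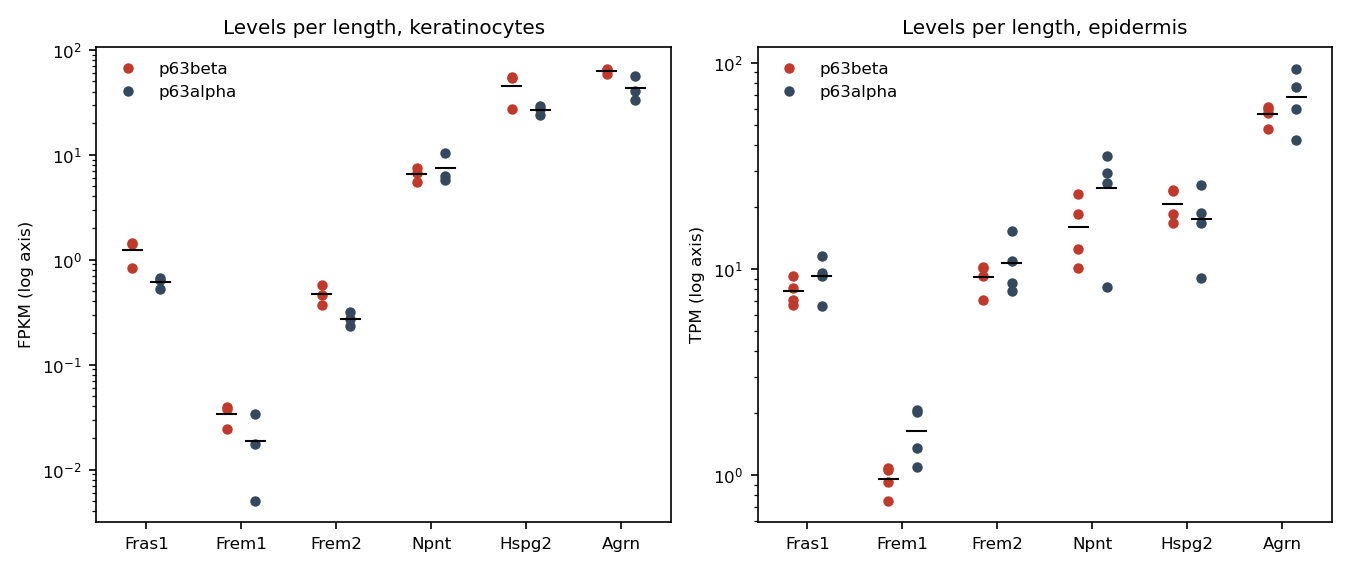
Level per length of each gene in each library, as FPKM in keratinocytes (left) and TPM in epidermis (right), on log axes. Points are libraries and short lines are group means, with p63beta left of p63alpha for each gene. Agrn is highest and Frem1 lowest in both panels, at 62.9 and 0.0339 FPKM on average in p63beta keratinocytes.

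The first question was whether the p63beta genotype changes these genes in cultured keratinocytes. None of the 5 members tested was called by edgeR at an adjusted p under 0.05, against 0.101% of 13820 genes (14 genes), while Fras1, Frem2, Hspg2 and Agrn had an unadjusted p under 0.05, against 6.85% of all genes. Fras1, Frem2 and Agrn were higher in every p63beta library than in any p63alpha library. Such a pattern was seen for 6.51% of all genes tested.

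Fras1 encodes the FRAS1 protein, which spans the membrane of the epidermal cell until it is cut and joins the matrix complex. The gene lies on the plus strand of mouse chromosome 5 at chr5:96373955-96784728 (build mm10), and 74 exons were counted. It had 12.9, 22.7 and 23.3 CPM in p63beta keratinocytes 1 to 3, against 8.44, 10.55 and 9.99 CPM in p63alpha keratinocytes 1 to 3. The groups did not overlap, and p63beta library 1 was the nearest to the p63alpha range. The log2 fold change of p63beta over p63alpha was 1.02 ± 0.25 (SE; 95% interval 0.42 to 1.63), with an unadjusted p of 0.00573 and an adjusted p of 0.447. In the authors' deposited table the same gene passed, with a shrunken log2 fold change of 0.68 and an adjusted p of 0.0338, as did 1.5% of the 13901 genes tested there (208 genes). Shrunken values are drawn toward 0, so 0.68 does not compare directly with the other estimates here. DESeq2 run on the counts also passed Fras1, with an unshrunken log2 fold change of 1.012 and an adjusted p of 0.0324.

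Frem2 encodes a second membrane-spanning member of the complex, and lies on the minus strand at chr3:53513938-53657355. It had 4.42, 5.79 and 7.29 CPM in p63beta keratinocytes, against 3.95, 3.38 and 2.81 CPM in p63alpha keratinocytes, in the order of the replicate numbers. All p63beta values lay above all p63alpha values, although the nearest pair, both numbered 1, differed by a factor of only 1.12. Its log2 fold change was 0.78 ± 0.26 (SE), with an unadjusted p of 0.0231 and an adjusted p of 0.612. Frem1, the secreted member, on the minus strand at chr4:82897920-83052167, had 10, 6 and 11 counts in p63beta keratinocytes and 8, 5 and 1 counts in p63alpha keratinocytes. These counts were below the filter on low counts, so Frem1 was not tested there.

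Hspg2 encodes the perlecan core protein and lies on the plus strand at chr4:137468803-137570630, with 97 counted exons. It had 373, 770.3 and 795 CPM in p63beta keratinocytes, against 342, 384 and 406 CPM in p63alpha keratinocytes. Libraries 2 and 3 of p63beta were far above the rest, and library 1 lay inside the p63alpha range. This gave a log2 fold change of 0.78 ± 0.29 (SE; 95% interval 0.08 to 1.48), with an unadjusted p of 0.0349 and an adjusted p of 0.671.

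Agrn, on the minus strand at chr4:156165290-156197488, encodes the agrin core protein. It had 476, 479.6 and 440.2 CPM in p63beta keratinocytes, against 419, 246 and 294 CPM in p63alpha keratinocytes. The p63beta libraries lay close together, and p63alpha library 1 stood near them and above the other two. The coefficient of variation was 4.67% in p63beta keratinocytes and 27.9% in p63alpha keratinocytes. Agrn had a log2 fold change of 0.54 ± 0.20 (SE), with an unadjusted p of 0.033 and an adjusted p of 0.664.

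Npnt had 27.3, 25.2 and 21.1 CPM in p63beta keratinocytes, against 39.4, 21.5 and 22.8 CPM in p63alpha keratinocytes. The groups overlapped, and p63alpha library 1 was the only library above 30 CPM. Npnt thus had a log2 fold change of -0.19 ± 0.26 (SE; 95% interval -0.80 to 0.43), with an adjusted p of 0.962. Without p63alpha library 1 it was 0.13, so its sign rests on that library.

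**Figure D2:**
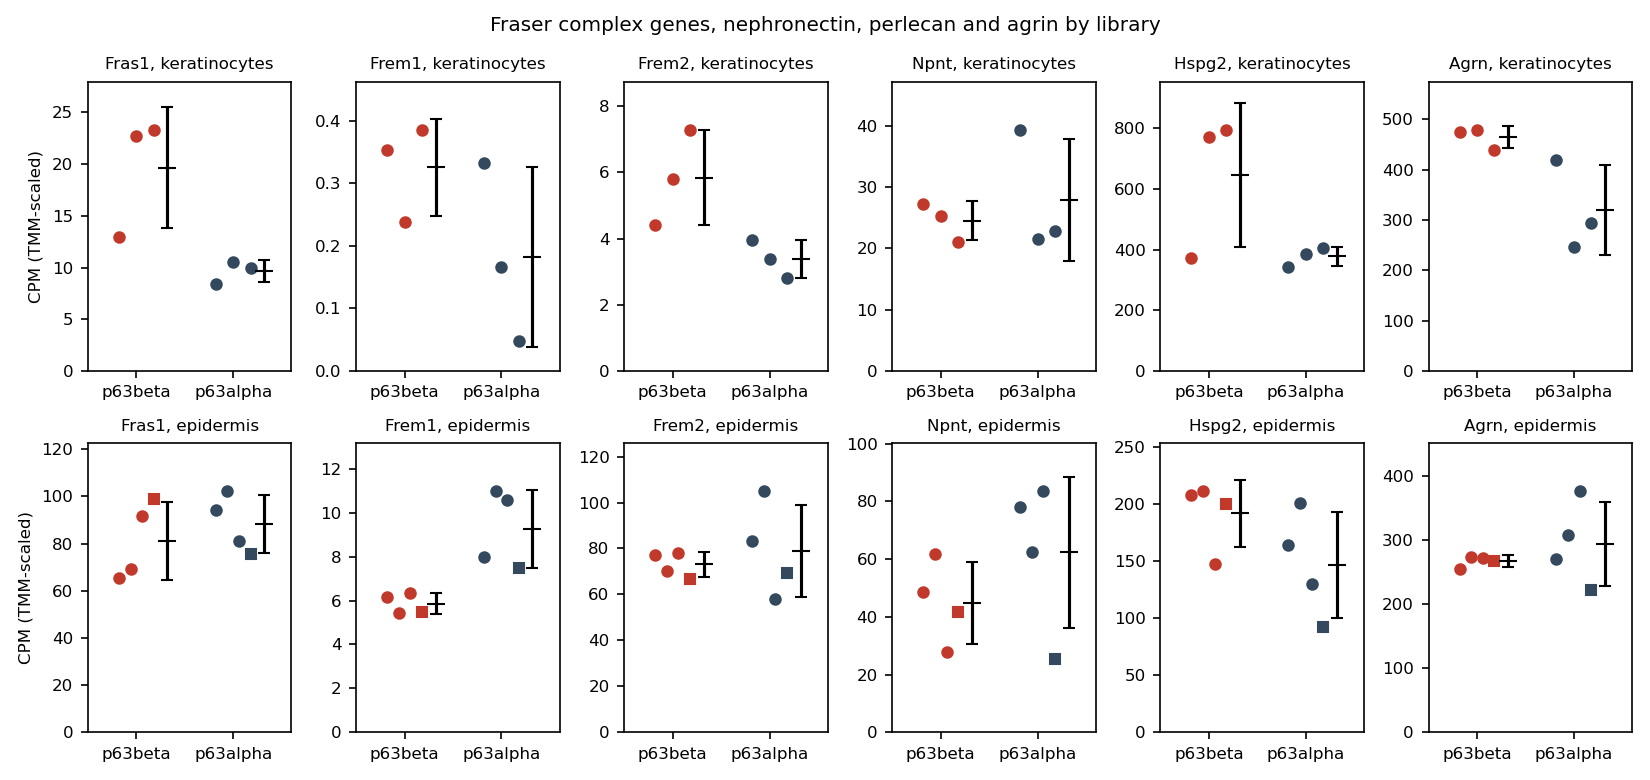
CPM of each gene in each library, keratinocytes above and epidermis below, with linear axes from 0. Points are libraries, with p63beta left of p63alpha, squares mark the epidermis libraries KO2 and WT3, and bars are means with SD. Fras1, Frem2 and Agrn separate by genotype in keratinocytes, Frem1 separates in epidermis at 5.44 to 6.36 CPM in p63beta and 7.48 to 10.97 CPM in p63alpha, and Npnt overlaps in both.

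Keratinocyte libraries with the same replicate number deviated together for numbers 1 and 2. Those numbered 3 did so little more than libraries of unequal numbers (r = 0.196 against at most 0.189). The labels state no pairing, so the main fit had none, and the numbers were used as a block in an alternative fit. Within numbers, Fras1 was 1.53, 2.16 and 2.33 times higher in p63beta than in p63alpha, and Hspg2 was 1.09, 2.01 and 1.96 times higher. The ratios for Agrn were 1.14, 1.95 and 1.5, and those for Frem2 were 1.12, 1.71 and 2.60. Pair 1 gave the smallest ratio for each of these 4 genes. With the block, no member was called (adjusted p 0.111 for Fras1, 0.264 for Agrn, 0.28 for Hspg2, 0.369 for Frem2 and 0.759 for Npnt), against 0.268% of all genes (37 genes). With the block and without pair 1, Fras1 (1.16, adjusted p 0.0158), Hspg2 (0.99, adjusted p 0.0112) and Agrn (0.77, adjusted p 0.0407) were called, but so were 585 genes in all. Since pair 1 had the smallest ratios, larger values without it follow from the choice of pair. With the block and without pair 2, the log2 fold change was 0.54 for Hspg2 and 0.38 for Agrn, and 0 genes were called over the whole table.

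Markers of other cells were summed in keratinocytes. The 8 markers of pericytes and smooth muscle summed to 1265 to 1944 CPM in p63beta and 859 to 1145 CPM in p63alpha keratinocytes, none of them at 0 in any library, with Acta2 highest at 713 to 1086 CPM in p63beta and 347 to 567 CPM in p63alpha. Of the 8, 7 had a positive log2 fold change (49.7% of all genes), and 2 were higher without overlap (6.51% of all genes). Another 1 was lower in every p63beta library than in any p63alpha library. None was called in the main fit, and 1 was called with the replicate block. The 9 fibroblast markers summed to 59.5 to 247 CPM in p63beta and 49.8 to 175 CPM in p63alpha. The 9 endothelial markers summed to 60.6 to 108 CPM in p63beta and 31.5 to 149 CPM in p63alpha. Flt1 was the highest of these 9, at 39.15 to 85.32 CPM in p63beta and 20.98 to 133.9 CPM in p63alpha. The endothelial list did not follow its sum, with a median log2 fold change of 1.076. Of the 7 tested, 5 had a positive log2 fold change (49.7% of all genes) and 3 were higher without overlap (6.51% of all genes). None was lower without overlap and none was called. The 8 hair follicle markers summed lower in p63beta, at 7857 to 8583 CPM, against 9041 to 14420 CPM in p63alpha. Krt17 was the highest of them, at 7463 to 8201 CPM in p63beta and 8692 to 13960 CPM in p63alpha. Their part in the levels of Fras1, Hspg2 and Agrn was not tested. Without the p63beta library that held heart muscle RNA, the log2 fold change was 0.87 for Fras1, 0.58 for Frem2, 0.59 for Hspg2 and 0.57 for Agrn, with adjusted p-values of 0.999.

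Epidermis was the second setting in which the genotypes were compared. None of the 6 members was called by edgeR, against 0.232% of 13796 genes (32 genes), and Frem1 was the only member with an unadjusted p under 0.05, against 4.64% of all genes. The epidermis libraries are named here as in the columns of the table, since these carry no replicate number. Libraries KO2 (p63beta) and WT3 (p63alpha) carry another naming style from the 3 remaining libraries of each genotype.

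Frem1 had 6.15, 5.44, 6.36 and 5.46 CPM in p63beta epidermis (EP10, EP11, EP12 and KO2), against 8.00, 10.97, 10.55 and 7.48 CPM in p63alpha epidermis (EP07, EP08, EP09 and WT3). Every p63beta library was below every p63alpha library, a pattern found for 1.19% of genes tested. The log2 fold change was -0.66 ± 0.22 (SE; 95% interval -1.16 to -0.16), with an unadjusted p of 0.0141 and an adjusted p of 0.733. It was -0.72 among the 3 libraries per genotype of the larger naming style, and KO2 had 0.73 times the level of WT3. In the authors' deposited table its log2 fold change was -0.66 with an adjusted p of 0.146, and 0.896% of the 16071 genes there passed (144 genes).

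Fras1 had 65.3, 69.2, 91.7 and 98.9 CPM in p63beta epidermis, against 94.3, 102, 81.1 and 75.7 CPM in p63alpha epidermis. The groups overlapped over most of their range, with EP10 and EP11 below all p63alpha libraries. This left a log2 fold change of -0.12 ± 0.18 (SE; 95% interval -0.51 to 0.27), an interval that lies below the estimate of 1.02 in keratinocytes.

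Frem2 had 77.2, 70.4, 78.1 and 66.6 CPM in p63beta epidermis, against 83.35, 105, 58.02 and 69.5 CPM in p63alpha epidermis. All p63beta values lay inside the p63alpha range. Its log2 fold change was -0.11 ± 0.19 (SE; 95% interval -0.52 to 0.30). Agrn was likewise inside the p63alpha range in every p63beta library, with 254, 274, 272 and 268 CPM in p63beta epidermis, against 271, 308.5, 376 and 221.5 CPM in p63alpha epidermis. Its coefficient of variation was 3.38% in p63beta epidermis and 22.2% in p63alpha epidermis, the same order as in keratinocytes, and the difference in spread was not tested. For Agrn the log2 fold change was -0.14 ± 0.17 (SE; 95% interval -0.53 to 0.25).

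Hspg2 had 207.5, 211, 148 and 199.8 CPM in p63beta epidermis, against 164, 201, 130.2 and 92.1 CPM in p63alpha epidermis. The groups overlapped, with WT3 lowest. Its log2 fold change of 0.38 ± 0.23 (SE; 95% interval -0.13 to 0.90) was the only positive value among the members in epidermis, with an unadjusted p of 0.131. Within naming styles it was 0.19 in the larger style, and KO2 had 2.17 times the level of WT3. In Npnt the styles differed in sign. Npnt had 48.5, 61.8, 27.7 and 41.7 CPM in p63beta epidermis, against 77.9, 62.6, 83.5 and 25.5 CPM in p63alpha epidermis. The 3 p63alpha libraries of the larger style lay above every p63beta library, and WT3 lay below them all. EP12, of the larger style, was nearly as low as WT3. EP12 and WT3 also had the lowest basal keratinocyte marker sums of their genotypes. These were 8476 CPM in EP12, against up to 20090 CPM in p63beta, and 9265 CPM in WT3, against up to 15920 CPM in p63alpha. The part of this spread in the levels of Npnt and Hspg2 was not tested. Npnt had a log2 fold change of -0.47 ± 0.35 (SE) over all 8 libraries and -0.70 in the larger style (unadjusted p 0.0385, adjusted p 0.999), while KO2 had 1.64 times the level of WT3. Fras1 and Agrn also changed sign between styles, at -0.30 and -0.26 in the larger style, with KO2 at 1.31 and 1.21 times WT3.

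Markers of other cells were also summed in epidermis. Endothelial markers summed to 3.44 to 11.9 CPM in p63beta and 2.31 to 3.76 CPM in p63alpha epidermis, with up to 4 of the 9 at 0 in p63beta libraries and up to 3 in p63alpha libraries. Fibroblast markers summed to 75.3 to 171 CPM in p63beta and 110.2 to 185 CPM in p63alpha epidermis, with at most 2 of the 9 at 0 in a p63beta library and none at 0 in p63alpha libraries. The 8 melanocyte markers summed to 334 to 498.5 CPM in p63beta and 126 to 278 CPM in p63alpha epidermis without overlap. The 8 hair follicle markers summed to 1305 to 1949 CPM in p63beta and 1078 to 1675 CPM in p63alpha epidermis, and the highest of them, Krt79, had 768 to 955 CPM in p63beta and 412 to 823 CPM in p63alpha. The list did not follow its sum, since 2 of the 8 had a positive log2 fold change, the median was -0.51 and none was called. Their part in the level of Frem1 was not tested.

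**Figure D3:**
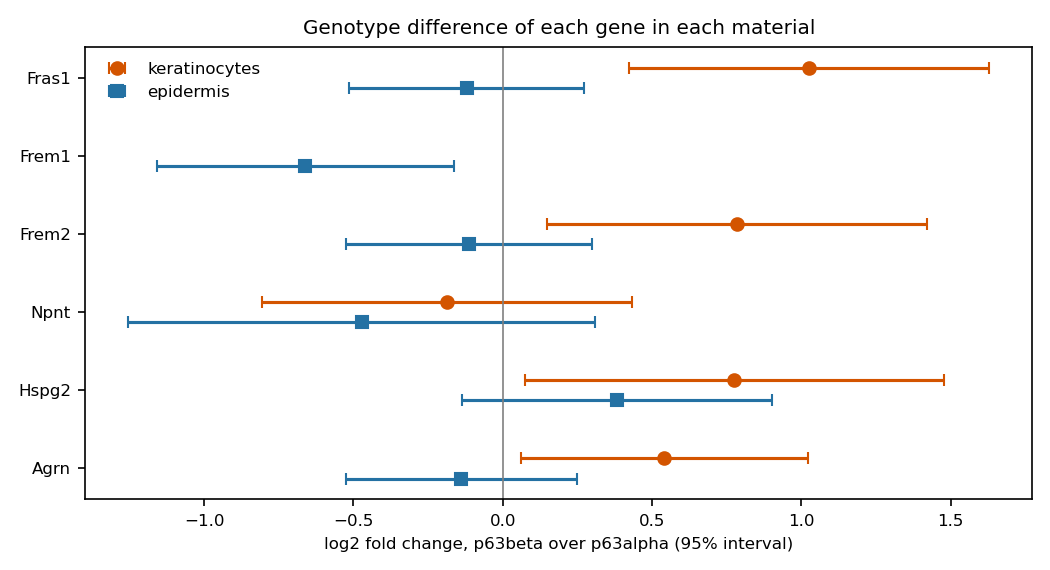
Log2 fold change of p63beta over p63alpha for each gene, with its 95% interval from edgeR, in keratinocytes (circles) and epidermis (squares). Frem1 has no keratinocyte value because its counts were below the filter. The keratinocyte values of Fras1, Frem2, Hspg2 and Agrn are positive, from 0.54 to 1.02, and Hspg2 alone is positive in epidermis.

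The effects in the 2 materials were then compared directly with an interaction term in a fit of all libraries. No member was called, and none of 14660 genes was called either (0%, with 618 genes or 4.22% at an unadjusted p under 0.05). Epidermis minus keratinocyte differences in log2 fold change were -1.13 ± 0.31 for Fras1 (unadjusted p 0.00266), -1.45 ± 0.55 for Frem1 (0.0199), -0.88 ± 0.29 for Frem2 (0.0102) and -0.67 ± 0.26 for Agrn (0.025). The value for Frem1 rests on 1 to 11 counts per keratinocyte library. Hspg2 (-0.38 ± 0.38) and Npnt (-0.27 ± 0.50) gave 95% intervals that included 0. All 6 adjusted p-values were 1. The joint fit sets counts from featureCounts beside estimates from salmon, so a difference in quantification cancels only as far as it affects both genotypes alike.

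Npnt was the member with several measured transcripts in epidermis. The gene lies on the minus strand at chr3:132882683-132950291, and RefSeq gives it a pair of starts 477 bases apart. In the GENCODE models, the first exons of NM_001029836, NM_033525, NM_001287102 and NM_001287101 hold the start codon and end at the same base. They begin at base 132950291 in NM_001029836, 132950160 in NM_033525 and 132950043 in NM_001287102 and NM_001287101. The upstream RefSeq start is therefore that of NM_001029836 alone in these models. NM_001287103 has its own untranslated first exon at chr3:132949778-132949814. In the GENCODE model of NM_001287103 coding begins in a later exon and runs for 457 codons, against 561 codons in NM_001029836. The regions before both starts are shown because the transcripts from the downstream start carried most of the Npnt RNA. They are the 250 bases before each start, from RefSeq on GRCm38.p6, read on the minus strand, with the GC box GGGCGG or its reverse complement CCGCCC in capitals.
Npnt upstream start, chr3:132950292-132950541: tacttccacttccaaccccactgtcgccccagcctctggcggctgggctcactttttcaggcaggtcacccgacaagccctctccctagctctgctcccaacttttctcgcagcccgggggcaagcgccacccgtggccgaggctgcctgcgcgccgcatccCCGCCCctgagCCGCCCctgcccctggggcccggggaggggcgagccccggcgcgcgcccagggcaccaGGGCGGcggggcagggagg
Npnt downstream start, chr3:132949815-132950064: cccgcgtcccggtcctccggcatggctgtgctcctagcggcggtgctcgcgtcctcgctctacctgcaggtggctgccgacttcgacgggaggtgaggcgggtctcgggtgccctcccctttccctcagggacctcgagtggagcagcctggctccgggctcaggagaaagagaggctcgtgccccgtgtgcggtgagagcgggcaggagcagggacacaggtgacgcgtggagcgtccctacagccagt
The downstream window overlaps the first exons of the upstream transcripts. The upstream window held 3 GC boxes and the downstream window none, and both were GC-rich, at 74.0% and 69.6%, against a median of 52.4% over all windows. A GC box was found in 32.7% of 32851 RefSeq windows of this length.

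The downstream transcript NM_001287103 carried 77.0, 70.2, 50.2 and 52.4% of the Npnt TPM in p63beta epidermis (EP10, EP11, EP12 and KO2), against 73.3, 71.0, 76.1 and 63.9% in p63alpha epidermis (EP07, EP08, EP09 and WT3). The p63alpha libraries lay within the wider p63beta range. The mean was 62.4 ± 13.2% in p63beta and 71.1 ± 5.21% in p63alpha (SD, n = 4 each), a difference of -8.62 percentage points with a two-sided exact permutation p of 0.314, where 0.0286 is the smallest the design allows. Adjusted over 6 transcript shares, that p was 1. NM_001029836 carried 19.6 ± 14.2% in p63beta and 13.9 ± 7.09% in p63alpha. NM_033525 carried 9.37 ± 9.25% in p63beta and 11.5 ± 5.96% in p63alpha, and NM_001287102 carried 8.57 ± 10.2% in p63beta and 2.59 ± 1.92% in p63alpha, all with wide spread between libraries. NM_001287101 was listed at 0 in all p63beta libraries and in all but EP07 of the p63alpha libraries.

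**Figure D4:**
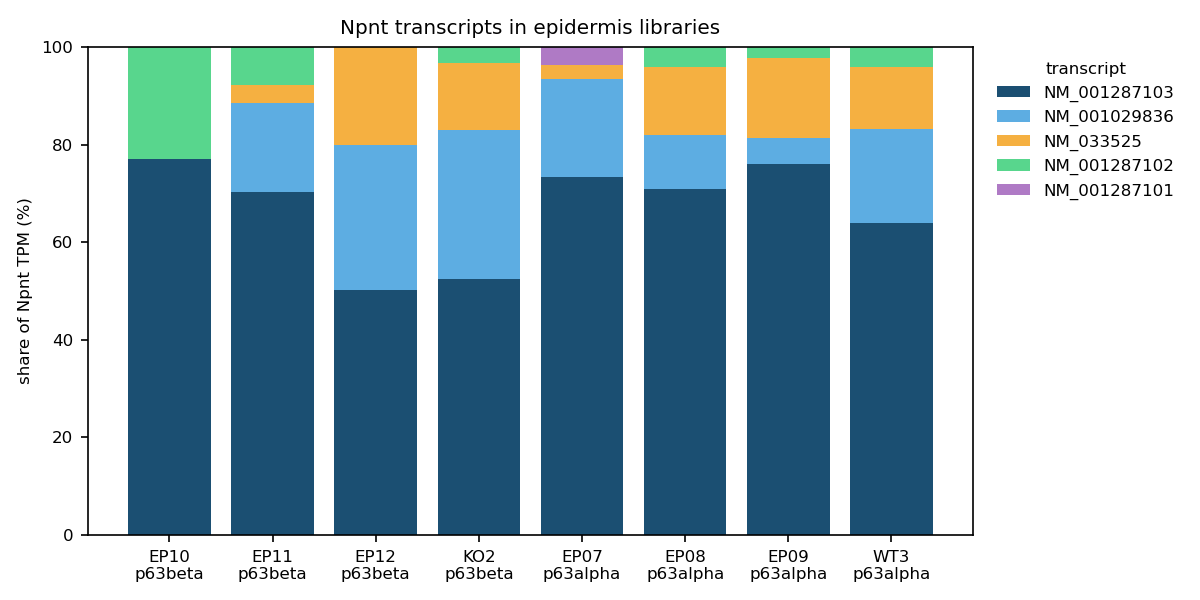
Share of the Npnt TPM carried by each annotated transcript in each epidermis library, as stacked bars from 0 to 100%. The p63beta libraries are the left 4 bars and the p63alpha libraries the right 4. NM_001287103, the transcript of the downstream start, is the largest part of every bar, at 50.2 to 77.0% in p63beta and 63.9 to 76.1% in p63alpha.

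These transcripts also differ by a pair of small coding exons, shown because they separate the less abundant forms. Capitals mark exon bases of the GENCODE transcripts on GRCm38, minus strand.
Npnt exon of NM_033525 and NM_001287101, chr3:132931582-132931632: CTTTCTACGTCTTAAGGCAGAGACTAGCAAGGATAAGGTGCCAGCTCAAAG
Npnt exon of NM_001287102 and NM_001287101, chr3:132914373-132914465: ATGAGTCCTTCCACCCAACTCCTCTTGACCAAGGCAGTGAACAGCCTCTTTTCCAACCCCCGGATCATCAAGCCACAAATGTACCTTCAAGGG
They are 51 and 93 bases long, both multiples of 3, so either can be left out without a shift of the reading frame. Estimates for transcripts that share most of their sequence are uncertain, and EP10 had 0% for both NM_001029836 and NM_033525 but 23.03% for NM_001287102. Among the 11 transcripts of the members in the table, 9 passed the filter and none was called, against 0.0547% of 18270 transcripts (10 transcripts, with 563 or 3.08% at an unadjusted p under 0.05).

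Since p63 is the factor that differs between the genotypes, the start regions were searched for p63 motifs. RefSeq windows existed for 5 of the 6 members, 8 windows in all. The core CATGNNNNNNCATG was in none of the 8, and in 0.49% of all windows. The p63 decamer, the consensus bound by a pair of p63 subunits, was in the Frem2 window alone among the members and in 7.13% of all windows. Both strands were searched, and the letters of these motifs can overlap each other. The Frem2 window, chr3:53657356-53657605 on GRCm38.p6, minus strand, is shown with that decamer in capitals, its last base 213 bases before the transcription start.
Frem2 start: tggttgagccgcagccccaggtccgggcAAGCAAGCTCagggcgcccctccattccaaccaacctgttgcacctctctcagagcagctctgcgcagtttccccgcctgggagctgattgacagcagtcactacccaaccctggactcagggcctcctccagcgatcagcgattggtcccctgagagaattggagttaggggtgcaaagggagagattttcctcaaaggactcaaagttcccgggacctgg
GC boxes were found 5 times before Hspg2 and 12 times before the upstream Agrn start, and not before Frem1 or Frem2. TATAAA was in none of the members' windows and in 12.4% of all windows, and CCAAT was found 2 times before Frem2 and before no other member (33.8% of all windows). A match is a description of the letters only.

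How the members varied together across libraries is given as a description, since the libraries share genotype and depth. In the 6 keratinocyte libraries, log2 CPM of Fras1 correlated with that of Hspg2 (r = 0.958) and of Frem2 (r = 0.881), and Npnt with Fras1 at r = -0.477. In the 8 epidermis libraries Fras1 and Hspg2 gave r = 0.0655, and the highest value was between Npnt and Agrn (r = 0.708). The genes most like each member were also listed, among 10058 genes in keratinocytes and 9965 in epidermis. With so few libraries and so many genes, a very high r is easily reached, and shared functions were not tested. In keratinocytes the nearest genes were Dapk1 (r = 0.997) and Jag1 (0.989), a Notch ligand, for Fras1, and Map4k5 (0.998) and Dll1 (0.993), also a Notch ligand, for Frem2. Rsl24d1 (0.995) and Fbln5 (0.993), an elastic fibre protein, were nearest to Hspg2, and Ccdc82 (0.992) and Slc26a9 (0.989) to Npnt. Rap2a was among the genes most like Agrn (r = 0.993). In epidermis Tbx3, a transcription factor, was nearest to Frem1 (r = 0.988), with a log2 fold change of -1.10 ± 0.28 and an adjusted p of 0.284, followed by Afap1 (0.941). The nearest genes of the others were Tfcp2l1 (0.913) and Natd1 (0.876) for Fras1, Usp38 (0.968) and Lnx1 (0.954) for Frem2, Top3a (0.985) and Ets1 (0.982) for Npnt, Srf (0.97) and Ube2m (0.964) for Hspg2, and Srsf11 (0.947) and Zdhhc17 (0.937) for Agrn.

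Partners of the Fraser complex were examined as a list of 7 genes, of which 6 were tested in each material. None was called, against 0.101% of all genes in keratinocytes and 0.232% in epidermis. At such shares a short list with none called says little, here and in the lists below. The median log2 fold change was 0.21 in keratinocytes and -0.17 in epidermis, against medians of -0.0013 and -0.0039 over all genes. Vwa2, which encodes AMACO, a matrix protein that binds the complex, had 12.8 ± 1.33 CPM in p63beta and 9.58 ± 0.798 CPM in p63alpha keratinocytes without overlap (log2 fold change 0.42 ± 0.14, adjusted p 0.612). Grip1, the scaffold that brings FRAS1 and FREM2 to the cell membrane, had 27.4 ± 4.33 CPM in p63beta and 24.5 ± 1.10 CPM in p63alpha keratinocytes. In epidermis Grip2 was near the detection limit, at 0.926 ± 0.626 CPM in p63beta and 0.195 ± 0.140 CPM in p63alpha, and Vwa2 had 61.4 ± 27.7 CPM in p63beta and 81.1 ± 15.1 CPM in p63alpha.

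Receptors were listed separately. Of 9 genes for nephronectin relatives and integrin chains, 8 were tested in keratinocytes and none was called, but all 8 were on the positive side, with a median log2 fold change of 0.41 (49.7% of all genes were positive). Itga3, the integrin chain that binds laminin 332, had 1464 ± 176 CPM in p63beta and 926 ± 165 CPM in p63alpha keratinocytes. Itga6, the hemidesmosome chain, had 476 ± 53.9 CPM in p63beta and 341 ± 64.2 CPM in p63alpha keratinocytes. The median was 0.04 in epidermis, where 9 genes were tested and none was called. Itga8, a chain of the nephronectin receptor, had 1.41 ± 0.432 CPM in p63beta and 2.80 ± 1.17 CPM in p63alpha epidermis (log2 fold change -0.99 ± 0.42, adjusted p 1), and Itga3 had 146 ± 22.3 CPM in p63beta and 118 ± 48.6 CPM in p63alpha epidermis.

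Receptors of agrin and perlecan gave 6 tested genes of 8 in keratinocytes, all 6 on the positive side and none called, against 49.7% positive and 0.101% called among all genes (median log2 fold change 0.59). Ptprs, a phosphatase receptor for heparan sulphate, had 173 ± 8.39 CPM in p63beta and 124 ± 10.4 CPM in p63alpha keratinocytes (0.47 ± 0.09, adjusted p 0.257). Dag1, which encodes dystroglycan, had 342 ± 41.2 CPM in p63beta and 255 ± 12.7 CPM in p63alpha keratinocytes (0.42 ± 0.11, adjusted p 0.47). In epidermis 4 were tested and none was called (median 0.04), with Ptprs at 68.2 ± 5.66 CPM in p63beta and 81.1 ± 18.8 CPM in p63alpha, and Lrp4, the agrin receptor, at 207.5 ± 37.5 CPM in p63beta and 188 ± 18.01 CPM in p63alpha.

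Other basement membrane genes, mainly laminin, collagen IV and nidogen chains, were tested in full as a list of 19 in both materials. Nid2, which encodes the linker protein nidogen 2, was the only gene called. It rose in p63beta in keratinocytes, with 109 ± 15.04 CPM in p63beta and 0.773 ± 0.234 CPM in p63alpha (adjusted p 8.47e-04), and in epidermis, with 156 ± 18.6 CPM in p63beta and 2.07 ± 0.697 CPM in p63alpha (adjusted p 7.81e-06). In keratinocytes 17 of the 19 were on the positive side (49.7% of all genes) and 9 were higher without overlap between genotypes (6.51% of all genes), and the median log2 fold change was 0.50. Lama5, the laminin alpha5 chain, had 345 ± 57.4 CPM in p63beta and 192.5 ± 25.9 CPM in p63alpha keratinocytes (adjusted p 0.289, and 0.0431 with the replicate block). Lamb1, the laminin beta1 chain, had 260.1 ± 48.5 CPM in p63beta and 136 ± 24.4 CPM in p63alpha keratinocytes (adjusted p 0.325). In epidermis 11 of the 19 were positive (49.3% of all genes), with a median of 0.15. Because matrix genes appear in the title of the series, these counts are not independent evidence of a direction. Lama5 had 250.2 ± 55.2 CPM in p63beta and 172 ± 43.7 CPM in p63alpha epidermis, and Col4a5 had 52.2 ± 8.18 CPM in p63beta and 64.0 ± 10.01 CPM in p63alpha epidermis.

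Heparan sulphate carriers at the cell surface were listed apart from those of the matrix. Of 11 syndecans, glypicans and related genes none was called in either material, with medians of 0.04 in keratinocytes and -0.26 in epidermis. Gpc6, a glypican, had 4.50 ± 0.537 CPM in p63beta and 2.40 ± 0.984 CPM in p63alpha keratinocytes, and Sdc4, a syndecan, had 118 ± 28.6 CPM in p63beta and 98.7 ± 15.1 CPM in p63alpha keratinocytes. In epidermis Cd44, the hyaluronan receptor, had 155 ± 47.6 CPM in p63beta and 252 ± 42.4 CPM in p63alpha (-0.70 ± 0.23, adjusted p 0.711), and Gpc3 had 50.2 ± 12.7 CPM in p63beta and 79.1 ± 26.1 CPM in p63alpha.

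Enzymes that build or trim heparan sulphate chains gave 24 tested genes of 25 in keratinocytes and 21 in epidermis, none called, with medians of 0.18 and -0.01. In keratinocytes 18 of the 24 were on the positive side (49.7% of all genes). Of the 24, 6 were higher without overlap (6.51% of all genes) and 2 were lower without overlap. In epidermis 9 of the 21 were positive (49.3% of all genes), and 1 was lower without overlap (1.19% of all genes). Hpse, which encodes heparanase, the enzyme that cuts these chains, had 5.16 ± 0.491 CPM in p63beta and 1.17 ± 0.422 CPM in p63alpha keratinocytes without overlap (2.13 ± 0.32, unadjusted p 0.000451, adjusted p 0.153). In epidermis Hpse had 66.8 ± 30.99 CPM in p63beta and 25.6 ± 21.2 CPM in p63alpha with overlap (1.38 ± 0.50, adjusted p 0.851). Ext1, a polymerase of the chain, had 128 ± 14.4 CPM in p63beta and 91.3 ± 8.38 CPM in p63alpha keratinocytes, and Glce, the epimerase, had 41.5 ± 6.95 CPM in p63beta and 56.9 ± 4.66 CPM in p63alpha epidermis.

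Proteases that can cut perlecan or agrin completed the lists, with 7 of 9 tested in keratinocytes and 8 in epidermis and none called (medians 0.53 and 0.29). Bmp1 had 151 ± 15.2 CPM in p63beta and 98.1 ± 22.8 CPM in p63alpha keratinocytes, and its relative Tll1 had 43.3 ± 12.8 CPM in p63beta and 30.1 ± 6.66 CPM in p63alpha keratinocytes. Both encode proteases that release the C-terminal fragment of perlecan. In epidermis the matrix metalloproteases Mmp3 (2.11 ± 1.66 CPM in p63beta and 0.496 ± 0.499 CPM in p63alpha) and Mmp9 (2.96 ± 2.35 CPM in p63beta and 0.741 ± 0.770 CPM in p63alpha) had the lowest p-values of this list and overlapped between genotypes.

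**Figure D5:**
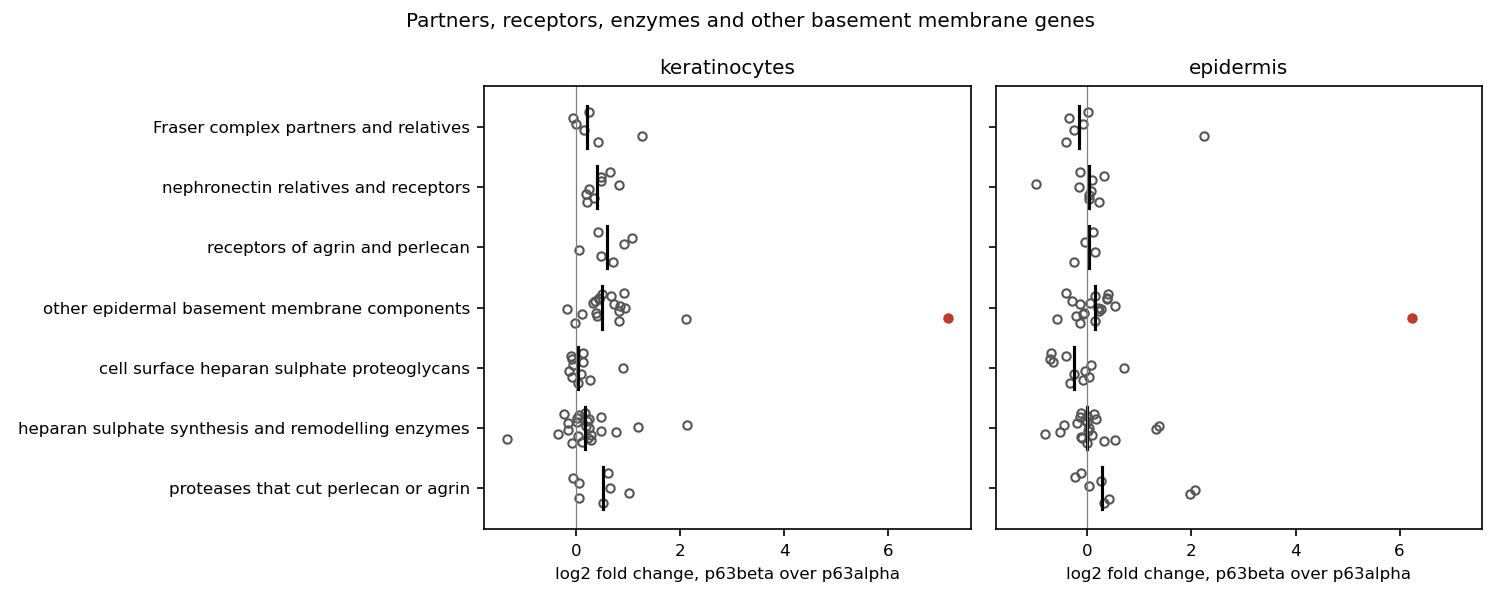
Log2 fold change of p63beta over p63alpha for each tested gene of the 7 related lists, in keratinocytes (left) and epidermis (right). Open circles are genes that were not called, filled circles are genes called by edgeR at an adjusted p under 0.05 and black lines are list medians. Nid2 is the only filled circle in each panel.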

How the data were processed

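Keratinocyte read pairs were deposited by the authors as counts per gene. Per the file headers, featureCounts 1.5.2 was run on the reverse strand (setting 2), and reads had to overlap an exon by at least 25 bases. The authors also deposited FPKM for keratinocytes, and these were recomputed from the counts to within 5e-07. For epidermis the authors deposited estimated counts and TPM from salmon, per gene and per transcript. Tables of results per gene were also deposited, with the authors' log2 fold changes (shrunken for keratinocytes) and adjusted p-values. The 14 columns of normalised values per library in them were not used. Per the submitters' processing notes, STAR, salmon and DESeq2 were used with build mm10. Their versions are not given in the sources used here. Epidermis columns name WT and KO, which the keratinocyte count header ties to p63alpha and p63beta. The authors' epidermis fold changes are headed WT against KO. They were read as p63beta over p63alpha, because the signs of all 144 genes that passed there matched that direction in the counts.

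Each material was fitted alone over all genes with edgeR 4.0.16 in R 4.3.3 (TMM, filterByExpr, robust quasi-likelihood F test), after rounding of estimated counts. P-values were adjusted by Benjamini-Hochberg and called under 0.05. All log2 fold changes set p63beta over p63alpha. CPM are scaled by TMM. The joint fit used 23204 genes found in both tables. Transcript shares were compared by an exact permutation test over 70 splits. Alternatives were RLE factors, no filter, no robust estimation, DESeq2 1.42.0, limma 3.58.1 on log2 FPKM or TPM with pseudocounts of 1 or 0.1, unrounded counts, shares of counts, the naming style, the replicate block and leaving out each library. The edgeR code was tested on simulated data. Replicate numbers in the keratinocyte titles were taken as pairs only in the alternative with the replicate block, and the main fit was unpaired. Deviations from the group means correlated at 0.583, 0.505 and 0.196 for equal numbers and -0.529 to 0.189 for unequal ones. No 2 libraries of a group were identical.

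The members and lists were chosen with earlier results of these data known. Named genes are the members, Trp63, the called genes and at most 2 others with the lowest p per list and material, the highest gene of marker lists and the 2 genes most correlated with each member among those with a mean of at least 5 CPM. A gene that this rule gives is not reported here.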

Additional observations from a re-analysis of the deposited data

Results flagged for a closer look

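Among 24 sets of 4 epidermis libraries, each for a member or for the share of a member's transcript, 2 sets held a library far from the rest, and chance alone flags about 1 in 20. Both describe the same library and the same event, since the shares of the Frem1 transcripts add up to the whole. In EP12, a p63beta library, the Frem1 transcript NM_177863 carried 64.42% of the Frem1 TPM and NM_001198811 carried 35.58%. In the other 3 p63beta libraries, as in all 4 p63alpha libraries, NM_001198811 carried 100% and NM_177863 was listed at 0. The Frem1 gene total of EP12, 147 estimated counts, was slightly below those of the other p63beta libraries (151, 171 and 219). Scaled for library total, EP12 was the highest p63beta library, at 6.36 CPM, with the others at 5.44 to 6.15 CPM.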

How the results depend on the processing

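Of 422 recomputed member values, 403 kept their direction and their side of the threshold, 4 passed the threshold only under the alternative and 15 changed sign or became 0. The count of called members in keratinocytes was 0, but 1 with DESeq2 (Fras1, 1.012, adjusted p 0.0324) and 3 with the replicate block and without pair 1 (Fras1 1.164, Hspg2 0.9863 and Agrn 0.7721). For Fras1 the adjusted p over all keratinocyte alternatives ranged from 0.0158 to 0.999. No member was called in epidermis, in the joint fit or among transcripts under any alternative run. Over the whole keratinocyte table, 14 genes were called, against 1 to 4 without a library, 216 with DESeq2, 37 with the replicate block, and 585, 0 and 1 with the block and without pairs 1, 2 and 3. In epidermis 32 genes were called, against 10 to 28 without a library, 155 with DESeq2 and 8 in the larger naming style, and 10 transcripts were called, against 5 to 11 without a library. The cause of these differences in counts was not tested.

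These 15 were as follows, and the cause was not tested. The keratinocyte log2 fold change of Npnt was -0.3423 to 0.1259 without a library, positive without p63alpha library 1, and 0.05888 with the block and without pair 1. In epidermis, Frem2 was -0.234 to 0.05664 (positive without EP08) and Agrn -0.2546 to 0.001779 (positive without EP09). Their transcripts NM_172862 and NM_021604 were -0.2342 to 0.0454 and -0.2588 to 0.001545, positive in the same cases. The Npnt transcript NM_001029836, at 0.0007 in all libraries, ranged from -0.3115 to 0.5608 without a library (-0.2123 without EP11, -0.00241 without EP12, -0.0648 without EP08, -0.1959 without EP09, -0.1714 without WT3). The share difference of NM_033525 was -5.703 to 1.013 points, positive without EP10. Those of the Frem1 transcripts were -21.47 to 0 points for NM_001198811 and 0 to 21.47 points for NM_177863, both 0 without EP12. Frem1 had few counts in keratinocytes and was below the filter of the fit of that material alone.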
